A study of Mus musculus with 4 samples.

Results

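Globins are small heme proteins that bind oxygen and other gases. The 7 genes described here were taken by symbol from the 17778 genes of the mRNA table. They are Hba-a1, Hba-a2, Hbb-b1 and Beta-s, which code for the chains of adult hemoglobin, Ngb (neuroglobin), Cygb (cytoglobin), and Alas2, which is not a globin but the enzyme that starts heme synthesis in red cell precursors. The mRNA was that of male C57BL/6 mice (substrain C57BL/6J in the study's methods), from the mPFC (medial prefrontal cortex), which lies at the front of the neocortex. In the CUMS group (2 libraries, chronic unpredictable mild stress), juvenile mice entered the study at postnatal day 21, with a first week of adaptation and baseline tests. Social isolation and changing mild stressors were applied for 3 weeks after that week. Only mice that then showed depression-like behavior in all behavior tests were used. The control group (2 libraries) was of the same strain and age and lived without these stresses. No gene was deleted and no drug was given as treatment in either group. Tissue was taken under isoflurane 24 hours after the behavior tests by decapitation, and the protocol mentions no perfusion, so that blood could remain in the tissue.

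Each gene had 1 value per group, the mean RPKM (read counts scaled to gene length and to the depth of the library) that the authors had computed over the libraries of the group. There is therefore no value for a single library and no replicate check, and no difference below can be compared with how much single mice vary. The low values of the table moved in steps from which the depth of a library was estimated, as 7385524 fragments in control and 7440476 in CUMS. This is lower than the read numbers of the study would give, and the reason is not known, so the fragment numbers are estimates and the true intervals may be narrower. The intervals below are exact Clopper-Pearson 95% intervals computed from these estimated fragments. They cover counting error only, because no spread over libraries is known. Duplicate PCR copies of a molecule could not be told from separate molecules, which would make the true intervals wider.

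Hemoglobin of adult mice is made of paired alpha and beta chains. The alpha chains are coded by Hba-a1 and Hba-a2 on chromosome 11, and the beta chains by adjacent genes on chromosome 7. These mRNAs are made in red cell precursors and persist in young red cells (reticulocytes), so that globin mRNA in brain tissue usually comes with blood, although low globin expression in neurons and glia has been described. Neuroglobin is made in neurons, with much of it in hypothalamus, amygdala and brain stem. Cytoglobin is made in fibroblast-like cells of many organs and in some neurons. The globins of neurons and other cells thus share the heme-binding fold with hemoglobin but not its cell of origin.

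The hemoglobin genes are near-identical copies, which bears on every value below. In the GENCODE M21 annotation of GRCm38 (the same build as mm10), Hba-a1 (chromosome 11, 32283511 to 32284465, plus strand) and Hba-a2 (chromosome 11, 32296489 to 32297298, plus strand) each have 3 exons. Their coding sequences of 426 bases differ at 1 base, C381T from Hba-a1 to Hba-a2, counted from the first base of the start codon. A read of 100 bases taken from the Hba-a2 transcript matched the Hba-a1 transcript without mismatch at 74.5% of its 455 positions, and within 3 mismatches at 96.5%. A read from Hba-a1 matched Hba-a2 without mismatch at 56.5% of 600 positions. The beta genes of the reference strain are Hbb-bs (chromosome 7, exons of the main transcript from 103826534 to 103827928, minus strand), which the table lists by its older name Beta-s, and Hbb-bt (chromosome 7, 103812524 to 103813996, minus strand). Their coding sequences of 441 bases also differ at 1 base, C417T from Hbb-bs to Hbb-bt. A read from Hbb-bs matched Hbb-bt without mismatch at 62.6% of 529 positions. These shares are for single reads. The reads were paired, and whether the mate of a read would tell the copies apart was not examined. The table had no row for the gene identifier of Hbb-bt and listed Hbb-b1, for which no position is given here. Hbb-b1 is not among these beta genes of the reference strain. It was not stated which reads were counted for Hbb-b1, so its value may not be that of a separate gene. Between an alpha and a beta gene, 0% of the 600 reads of Hba-a1 matched Hbb-bs, even with 3 mismatches.

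The study also designed a primer pair for Hbb-b1 for quantitative PCR. The primers are shown because they show which beta globin genes such an assay covers.

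Hbb-b1 forward primer: ccgatgaagttggtggtga

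Hbb-b1 reverse primer: atagcagaggcagaggataggt

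Both primers matched the transcripts of Hbb-bs and Hbb-bt with 0 mismatches, and the nearest match in the alpha globin, Ngb, Cygb and Alas2 transcripts had at least 6 mismatches. The product of 103 bases lies wholly in coding sequence and crosses 1 exon junction. It spans chr7:103827599-103827814 in Hbb-bs and chr7:103813590-103813808 in Hbb-bt (GRCm38, minus strand). The products of Hbb-bs and Hbb-bt had 0 differences, so the sequence below stands for both genes, and the assay measures their sum.

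Hbb-bs and Hbb-bt product: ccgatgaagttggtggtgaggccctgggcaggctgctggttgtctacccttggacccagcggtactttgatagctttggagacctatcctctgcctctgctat

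The 120 bases before the RefSeq start site of the red cell genes are shown next. The GENCODE transcripts of Alas2, Hba-a1, Hba-a2 and Hbb-bt start before the RefSeq site. Part or all of these stretches therefore lies within those transcripts. Sequences are from RefSeq (GRCm38.p6) and read from 5′ to 3′ on the strand of the gene. Capitals mark matches, on either strand, to the TATA box (searched as TATAA), to the CCAAT box (searched by these letters), to the CACCC box (likewise), which Krüppel-like factors bind, and to the GATA motif, searched as GATA with A or T before it and A or G after it. Of the 7 genes, 4 had a promoter in the table under their own identifier (Hba-a1, Hba-a2, Hbb-bs as Beta-s, and Alas2), and Hbb-bt was added as the copy of Hbb-bs.

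Hba-a2, chr11:32296372-32296491, plus strand: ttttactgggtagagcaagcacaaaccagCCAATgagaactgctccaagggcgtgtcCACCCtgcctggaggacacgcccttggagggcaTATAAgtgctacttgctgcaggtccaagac

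Hbb-bs, chr7:103827929-103828048, minus strand: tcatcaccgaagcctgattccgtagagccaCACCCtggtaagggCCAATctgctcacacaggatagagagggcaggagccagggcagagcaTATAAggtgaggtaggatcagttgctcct

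Hbb-bt, chr7:103813924-103814043, minus strand: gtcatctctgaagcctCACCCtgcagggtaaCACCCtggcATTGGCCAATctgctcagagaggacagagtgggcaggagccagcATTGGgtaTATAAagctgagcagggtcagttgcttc

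Alas2, chrX:150547297-150547416, plus strand: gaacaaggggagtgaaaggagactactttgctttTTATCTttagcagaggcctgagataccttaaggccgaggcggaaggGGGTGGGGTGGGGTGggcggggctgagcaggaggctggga

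The corresponding stretch of Hba-a1 had 0 differences from Hba-a2 over 117 bases once shifted by 3 bases, so the alpha copies cannot be told apart there either. Hbb-bs and Hbb-bt differed at 31 of 119 bases. In each of the globin promoters a TATA box lay between 30 and 23 bases before the start, with CCAAT and CACCC upstream of it in either order. A GATA motif lay farther upstream in Hba-a1 (from 183 bases before the start), Hba-a2 (from 186) and Hbb-bs (from 210), and none was found in Hbb-bt within 250 bases. Alas2 had a GATA motif from 86 bases before the start and 3 CACCC matches between 40 and 26 bases, all on the opposite strand, and no TATA match within the stretch shown. Over 250 bases before the start, the TATA box was found in 22.8% of 32851 mouse promoters, the CCAAT box in 33.8%, the CACCC box in 52.0%, the GATA motif in 26.5%, and the first 3 of these together in 3.28%. These matches are a description of the letters and not of bound factors.

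All 4 hemoglobin genes had a higher mean in CUMS. Hba-a1 (gene 15122) had a mean of 125 RPKM in control against 203 RPKM in CUMS, from 1052 and 1721 estimated fragments, a log2 ratio of 0.70 (interval 0.59 to 0.81). Hba-a2 (gene 110257) was 63.0 RPKM in control against 126 RPKM in CUMS, from 546 and 1097 fragments, a log2 ratio of 1.00 (0.85 to 1.15). Both alpha genes were thus higher in CUMS by more than counting error, and Hba-a2 had the highest log2 ratio of the 7 genes.

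Beta-s (gene 100503605), one of the beta chain genes of the strain, was 120 RPKM in control against 209 RPKM in CUMS, from 1131 and 1990 fragments, a log2 ratio of 0.80 (0.70 to 0.91). Hbb-b1 (gene 15129) was 32.6 RPKM in control against 53.0 RPKM in CUMS, from 302 and 493 fragments, a log2 ratio of 0.70 (0.49 to 0.91). The beta genes were therefore higher as well, and their intervals overlapped. In bulk tissue, more blood cells and more globin mRNA per cell cannot be told apart, in these and in all other values below.

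**Figure D1:**
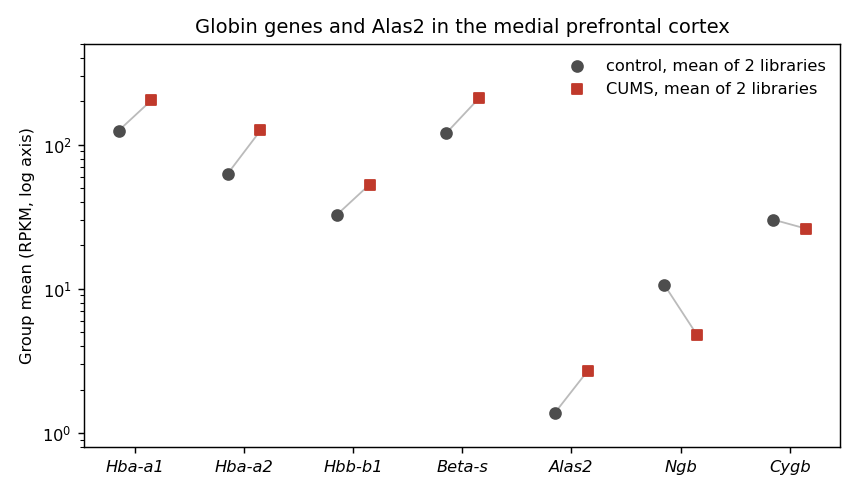
Group mean of each of the 7 genes in RPKM on a log axis. Grey circles are control and red squares CUMS, each the authors' mean of 2 libraries, joined by a line for each gene. Hba-a1, Hba-a2, Hbb-b1, Beta-s and Alas2 were higher in CUMS, Ngb was lower (10.7 to 4.80 RPKM), and Cygb moved little (30.2 to 26.2 RPKM).

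The values of the copies were also summed. Reads that align to more than 1 copy were not counted according to the methods, and Hbb-bt has no row, so the sums also depend on how copies were handled. The alpha genes together had 1598 fragments in control and 2818 in CUMS, a log2 ratio of 0.81 (0.72 to 0.90). The beta genes together had 1433 and 2483 fragments, a log2 ratio of 0.78 (0.69 to 0.88). All 4 genes together had 3031 and 5302 fragments, 1.74-fold more in CUMS. This was 0.0200% of all fragments in control (exact 95% interval 0.0193 to 0.0208) and 0.0348% in CUMS (0.0338 to 0.0357), or 1 fragment in 4994 and 1 in 2876. These shares hold only the reads counted under these 4 genes, and reads shared by copies, which may be missing from them, were not estimated.

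The balance of alpha to beta chains was nearly the same in both groups. Summed alpha RPKM was 1.23 times summed beta RPKM in control and 1.25 times in CUMS, and the change of this ratio, from the fragments, was 1.02-fold (exact conditional interval 0.93 to 1.11). Within the beta genes, Beta-s held 78.6% of the summed RPKM in control and 79.8% in CUMS, a change of 1.08-fold (0.91 to 1.27). Within the alpha genes, Hba-a2 held 33.5% in control and 38.2% in CUMS, and this change of 1.23-fold (1.08 to 1.40) was larger than counting error. Values of single alpha copies are uncertain, because the copies share most positions of single reads, and the part of this in the shift was not tested.

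**Figure D2:**
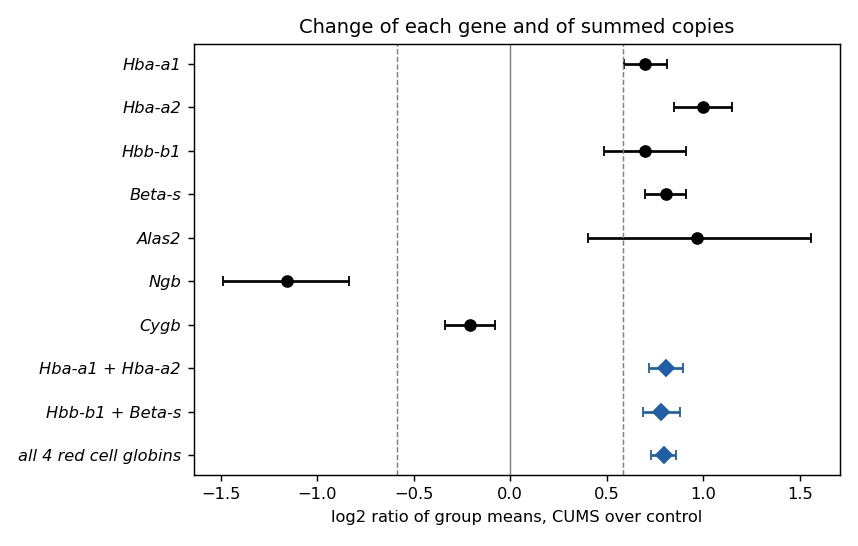
Log2 ratio of the CUMS over the control mean for each gene (black circles) and for summed copies (blue diamonds). Bars are 95% intervals for counting error and dashed lines a fold of 1.5 in either direction. The alpha sum (0.81) and the beta sum (0.78) lie close together, and Ngb (-1.16) lies on the other side of 0.

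A fold above 1.5 was counted as a change of note, which is the fold threshold of the study. Among the 14257 genes that reached 0.5 RPKM in at least 1 group, 7.20% were past this fold in either direction, and 2.78% of the 14257 were higher in CUMS and 4.42% lower. All 7 genes reached this level, of which 5 were higher by this fold (the hemoglobin genes and Alas2), 1 was lower (Ngb) and 1 was within it (Cygb). Among 9397 genes of at least 5 RPKM, 0.319% were higher by this fold, which is 30 genes, and 1.28% were lower. They included the 4 hemoglobin genes, and Beta-s, Hba-a1 and Hba-a2 had the highest CUMS level of the 30, ahead of the clock gene Nr1d1 (54.9 and 87.0 RPKM). With a fold above 2 in place of 1.5, 0.898% of the 14257 genes were higher and 1.56% lower, and of the 7 genes 0 were higher and 1 was lower (Ngb), since Hba-a2 was at 1.99-fold and Alas2 at 1.95-fold. With no minimum level, 8.43% of all 17778 genes were higher by a fold of 1.5 and 10.6% lower, and when the interval also had to be clear of 0, 1.48% of the 14257 genes were higher, again with 5 of the 7. The interval was clear of 0 in all 7 genes, as in 29.3% of all genes tested.

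The hemoglobin genes also stood out among genes of like expression. Of 1498 genes within 2-fold of the mean level of Hba-a2 (itself counted), 0 had a higher log2 ratio. For Hbb-b1 this was 0 of 2999 genes, for Beta-s 1 of 836 and for Hba-a1 2 of 829, where the genes counted include the other hemoglobin genes. These are ranks of single group means and not tests.

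**Figure D3:**
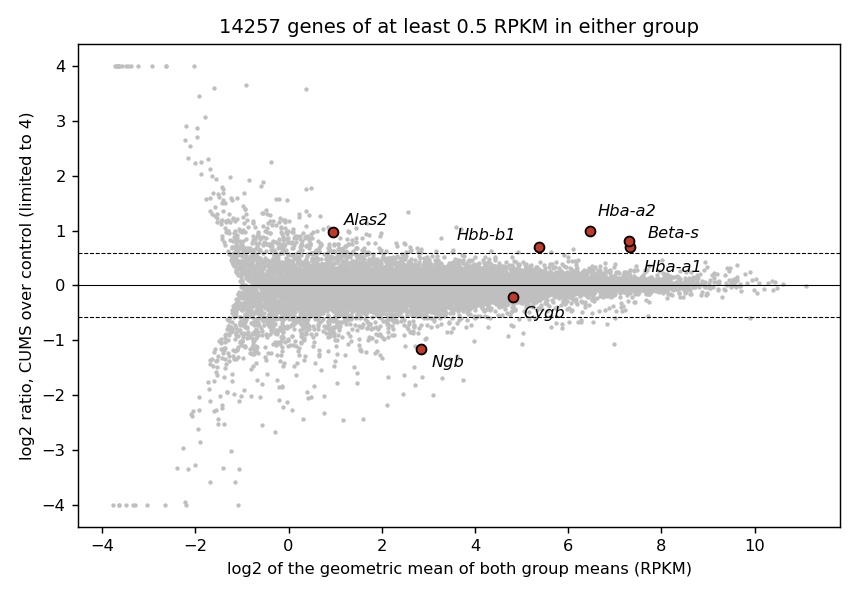
Log2 ratio of CUMS over control against the log2 geometric mean level in RPKM, for 14257 genes (grey) and the 7 genes described (red). Ratios beyond 4 are drawn at 4 and dashed lines mark a fold of 1.5. The hemoglobin genes lie at the upper edge of the cloud at their level, Ngb near its lower edge and Cygb inside it.

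Alas2 (gene 11656, GENCODE main transcript at chromosome X, 150547375 to 150570638) makes 5-aminolevulinate, the first precursor of heme, in red cell precursors only. It was 1.39 RPKM in control against 2.71 RPKM in CUMS, from 40 and 79 fragments, a log2 ratio of 0.97 (0.40 to 1.56). The interval is wide because of the low level. Against the summed hemoglobin genes, its change differed by a log2 of -0.18 (hemoglobin minus Alas2, -0.77 to 0.40), and this interval includes 0. Among 2982 genes within 2-fold of its level, 26 had a higher ratio.

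The other genes of heme synthesis were near even. All 15 genes of this list reached 0.5 RPKM, and only Alas2 passed the fold of 1.5. The remaining 14, which most cells use, had log2 ratios from -0.26 (Alad) to 0.14 (Uros), with 8 higher and 6 lower and a median of 0.05, beside a median of -0.02 over all genes tested. Alas1, the form of the enzyme found in all tissues, was 23.8 RPKM in control against 23.2 RPKM in CUMS. Fech, which inserts the iron, had a log2 ratio of 0.02, and the mitochondrial iron importer Slc25a37 was 7.59 and 8.13 RPKM. Among heme synthesis genes, the higher level in CUMS was thus seen in the red cell form of the first enzyme.

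Few fragments were counted under the other globin genes. Hbb-b2, listed as a beta chain gene, was 0.12 RPKM in control against 0.54 RPKM in CUMS, which is 1 and 5 fragments. It thus reached 0.5 RPKM in CUMS only, and its log2 ratio of 2.23 had an interval from -0.85 to 7.87. Like Hbb-b1, Hbb-b2 is not among the beta genes of the reference strain given above, and which reads were counted for it was not stated. The theta globin Hbq1a had 7 and 12 fragments, and its log2 ratio of 0.77 had an interval from -0.70 to 2.35. The embryonic chain Hbb-y had 2 fragments in control and 1 in CUMS, myoglobin (Mb) 4 and 6, and androglobin (Adgb) 5 and 6. No difference was detectable in these genes at this depth.

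Genes that accompany hemoglobin in red cells were looked at next. Of 25 symbols listed for the red cell membrane and enzymes, 17 were in the table and 9 reached 0.5 RPKM, with 2 higher, 7 lower, 0 past the fold in either direction and a median log2 ratio of -0.06. The 9 were genes that neurons also use, such as Epb4.9 (109 RPKM in both groups), the spectrin gene Sptb (27.2 and 25.3 RPKM) and Ank1 (9.69 and 7.01 RPKM). The 8 below this level had 20 fragments in control and 31 in CUMS in all. Among them Slc4a1, the anion exchanger band 3 of red cells, had 1 fragment in control and 11 in CUMS, a ratio of 8.25 with an interval from 1.59 to 470. Rhag, of the Rh complex of the red cell membrane, was listed at 0 in control and had 1 fragment in CUMS. Of the 8, 5 were higher and 3 lower by RPKM. The 3 lower ones were the pyruvate kinase gene Pklr (5 fragments in control and 1 in CUMS), Ermap (12 and 11) and Epb4.2 (1 and 1), and their intervals included 0. These genes were named after their values had been seen, as defining genes of red cells.

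Of 20 symbols for erythroid factors and late erythroid genes, 18 were in the table and 12 reached 0.5 RPKM. Of these 12, 8 were higher and 4 lower, and 3 were past the fold, all higher. Among the 3, Tal1 and Isg20 reached 0.5 RPKM in CUMS only, so the minimum level itself favored higher genes. With all 18 genes and values under 3 fragments raised to 3, 9 were higher and 5 lower, with a median log2 ratio of 0.002. Tfr2, a transferrin receptor of erythroid cells and liver, was 1.44 RPKM in control against 2.35 RPKM in CUMS (62 and 102 fragments, log2 ratio 0.70, 0.24 to 1.19). Tal1, a transcription factor of blood and vessel cells, was 0.39 and 0.68 RPKM (24 and 42 fragments, log2 ratio 0.81, 0.04 to 1.58). Isg20 rested on 6 and 9 fragments, and its interval included 0. Gata1 and Klf1, the factors that define the erythroid lineage, had 0 and 4 fragments in control and 1 and 1 in CUMS. Ahsp, the chaperone of alpha globin, had 2 fragments in each group. These 3 genes, named after their values had been seen, were thus near absent in both groups, whereas the hemoglobin genes had 3031 and 5302 fragments.

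**Figure D4:**
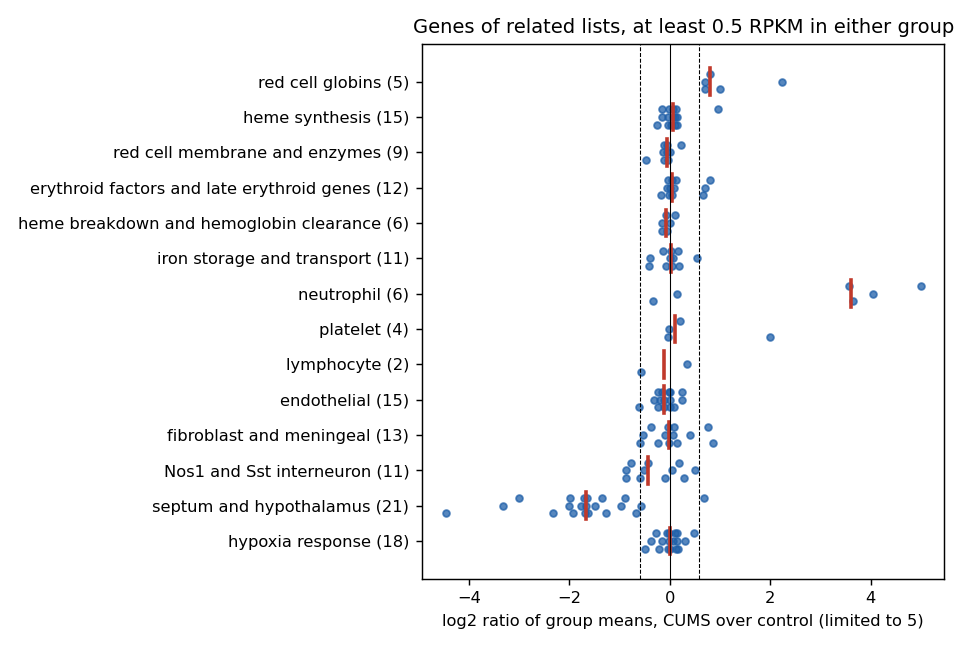
Log2 ratio of CUMS over control for the genes of 14 lists that reached 0.5 RPKM in at least 1 group (number in parentheses). Each point is a gene, red bars are medians, dashed lines mark a fold of 1.5, and values beyond 5 are drawn at 5. Red cell globins and neutrophil genes lie to the right, septum and hypothalamus genes to the left (median -1.67), and heme synthesis, iron and hypoxia genes around 0. Of the neutrophil genes shown, S100a8, S100a9, Ngp and Camp reached 0.5 RPKM in CUMS only. The same holds for Hbb-b2 among the red cell globins, which has the highest ratio of that row. Among the septum and hypothalamus genes, Gal, Oxt, Irs4 and Calcr reached 0.5 RPKM in control only and Pmch in CUMS only.

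Genes of other blood cells were higher in CUMS for neutrophils. The table held 12 of 15 neutrophil symbols, with 196 fragments in control and 292 in CUMS in all. Of the 6 that reached 0.5 RPKM, 5 were higher and 1 lower. S100a8, S100a9, Ngp and Camp reached this level in CUMS only, so this count was favored by the minimum level itself. With all 12 genes and values under 3 fragments raised to 3, 9 were higher and 1 lower. S100a8, one chain of the calcium-binding protein calprotectin, had 2 fragments in control and 26 in CUMS, a ratio of 11.9 (3.23 to 112). S100a9, the other chain, had 1 and 14 fragments, a ratio of 12.5 (2.11 to 588). The granule genes Ngp and Ltf had 1 fragment each in control and 17 each in CUMS. Camp, another granule gene, was listed at 0 in control and had 8 fragments in CUMS, at least 2.71-fold higher against a floor of 3 fragments over the group. Csf3r (1.83 and 2.02 RPKM) and Cxcr2 (1.60 and 1.27 RPKM) had intervals that included 0. The part of these cells in the values of the hemoglobin genes was not tested.

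Platelet and lymphocyte genes were scarce. Of 10 platelet genes in the table, 4 reached 0.5 RPKM, with 2 higher and 2 lower, and the summed fragments of the 10 were 447 in control and 465 in CUMS. Of these, 370 and 364 belonged to Gp1bb alone, which was near even. Gp1ba, under 0.5 RPKM, had 3 fragments in control and 12 in CUMS, a ratio of 3.87 (1.07 to 21.9). Among the 4, Gp9 was past the fold with 2 and 8 fragments, a log2 ratio of 2.00 (-0.34 to 5.26). Gp9 reached 0.5 RPKM in CUMS only, so this count was favored by the minimum level itself. With all 10 genes and values under 3 fragments raised to 3, 6 were higher and 3 lower. Pf4, a platelet chemokine, had 6 and 7 fragments. Of 10 lymphocyte genes, 2 reached 0.5 RPKM, Cd4 (1.65 and 2.09 RPKM) and Lck (0.94 and 0.63 RPKM), and both intervals included 0. The T cell genes Cd3d and Cd3e were listed at 0 in control and had 1 fragment each in CUMS.

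Endothelial genes, which mark the vessels that hold the blood, were not higher with the hemoglobin genes. All 15 reached 0.5 RPKM, with 6 higher, 9 lower, a median log2 ratio of -0.12, and summed RPKM of 195 in control and 175 in CUMS. Cldn5, the tight junction protein of brain endothelium, was 38.1 and 25.0 RPKM (log2 ratio -0.61, -0.77 to -0.45) and was the only one past the fold. Pecam1 was 6.99 and 5.62 RPKM (log2 ratio -0.31, -0.55 to -0.08). Flt1 and Slc2a1, the glucose transporter of the vessel wall, had log2 ratios of 0.01 and -0.01.

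Genes that respond to free hemoglobin or heme, or that handle iron, were near even. Of 9 genes for heme breakdown and hemoglobin clearance in the table, 6 reached 0.5 RPKM and 0 were past the fold. The heme oxygenase Hmox1, which heme induces, was 3.25 RPKM in control against 3.47 RPKM in CUMS (78 and 84 fragments, log2 ratio 0.10, -0.37 to 0.56). Of 11 iron genes, 0 were past the fold. The ferritin heavy chain Fth1 was 1542 and 1576 RPKM, the light chain Ftl1 309 and 310 RPKM, and the transferrin receptor Tfrc 15.7 and 17.5 RPKM. Transferrin (Trf), which oligodendrocytes make in brain, was 93.8 and 71.4 RPKM (log2 ratio -0.39, -0.47 to -0.32).

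None of the genes induced by low oxygen that were listed passed the fold. Of 18 that reached 0.5 RPKM, 9 were higher, 9 lower and 0 past the fold, with a median log2 ratio of 0.00. The counting interval was clear of 0 in 4 higher and 4 lower genes. The largest change was in Ndrg1, at 42.2 and 30.1 RPKM (log2 ratio -0.49, -0.59 to -0.39). Vegfa, the vessel growth factor, was 22.2 and 19.2 RPKM (log2 ratio -0.21, -0.34 to -0.08). Bnip3 was 53.3 and 59.6 RPKM (0.16, 0.05 to 0.27). Slc2a3, the neuronal glucose transporter, was 63.1 and 63.5 RPKM, and Hif1a, a subunit of the oxygen-sensitive factor itself, was 12.1 and 13.1 RPKM.

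Neuroglobin went the other way. Ngb (gene 64242, chromosome 12, 87097531 to 87102539) was 10.7 RPKM in control against 4.80 RPKM in CUMS, from 257 and 116 fragments, a log2 ratio of -1.16 (-1.49 to -0.84), which is 2.23-fold lower in CUMS. Of 4845 genes within 2-fold of its level, 17 had a lower ratio. The summed hemoglobin genes were 31.9 times Ngb in control and 123 times in CUMS by summed RPKM, a change of 3.87-fold (3.09 to 4.89).

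Most genes listed for septum and hypothalamus moved in the direction of Ngb. Of 25 symbols 24 were in the table, and their summed RPKM was 287 in control and 136 in CUMS. Of the 21 that reached 0.5 RPKM, 20 were lower and 19 of these were past the fold, with a median log2 ratio of -1.67. Gal, Oxt, Irs4 and Calcr reached this level in control only and Pmch in CUMS only. The minimum level itself thus favored lower genes. With all 24 genes and values under 3 fragments raised to 3, 2 were higher and 21 lower, with a median log2 ratio of -1.57. Zic1, a transcription factor of septum, was 17.5 and 6.92 RPKM (log2 ratio -1.34, -1.52 to -1.16). Nkx2-1, a factor of hypothalamus and basal forebrain, was 2.57 and 0.67 RPKM (-1.94, -2.61 to -1.26). The neuropeptide gene Trh was 6.06 and 2.51 RPKM, and Gal had 23 fragments in control and 1 in CUMS. Pmch was the exception, with 5 and 8 fragments, and of the 3 genes below 0.5 RPKM, Hcrt had 2 and 4 fragments, Avp 1 and 1, and Otp 4 and 0. Part of the list consists of genes that the study named from these same samples, so it is not independent evidence of its direction. The part of these regions in the value of Ngb was not tested.

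Cytoglobin moved little. Cygb (gene 114886, chromosome 11, 116645595 to 116654313) was 30.2 RPKM in control against 26.2 RPKM in CUMS, from 1039 and 907 fragments, a log2 ratio of -0.21 (-0.34 to -0.08). This was 86.6% of the control level. Of 3904 genes within 2-fold of its level, 317 had a lower ratio. The ratio of Cygb to Ngb was 2.83 in control and 5.45 in CUMS by RPKM, a change of 1.93-fold (1.52 to 2.47), so that these globins differed from each other by more than counting error.

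Cells known to make cytoglobin were described by 2 lists. The interneuron list also held genes of other interneurons, such as Vip, Gad1 and Gad2, so its counts do not describe cytoglobin-making cells alone. Of 13 fibroblast and meningeal genes, 6 were higher and 7 lower, with a median log2 ratio of -0.02 and summed RPKM of 77.7 in control and 79.9 in CUMS. The matrix proteoglycan Dcn was 2.20 and 4.02 RPKM and Aldh1a2, which makes retinoic acid in the meninges, 1.98 and 3.35 RPKM, both past the fold, whereas the collagen gene Col3a1 was 0.98 and 0.65 RPKM, past it in the other direction. Of 11 interneuron genes, 4 were higher and 7 lower, with a median of -0.43. Nos1, which makes nitric oxide in the interneurons in which cytoglobin has been described, was 10.4 and 9.64 RPKM (log2 ratio -0.10, -0.26 to 0.06), and Sst was 314 and 326 RPKM. The neuropeptide genes Vip (15.7 and 22.3 RPKM, log2 ratio 0.51, 0.31 to 0.71) and Npy (90.2 and 109 RPKM, 0.27, 0.13 to 0.42) were higher by more than counting error but within the fold. Past the fold were Gad1 (158 and 104 RPKM), Gad2 (43.9 and 23.9 RPKM) and Slc32a1 (76.7 and 44.7 RPKM), which serve the transmitter GABA, and Tacr1 (2.66 and 1.46 RPKM).

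The order of the levels per length differed between the groups. In control the order in RPKM was Hba-a1 (125), Beta-s (120), Hba-a2 (63.0), Hbb-b1 (32.6), Cygb (30.2), Ngb (10.7) and Alas2 (1.39). In CUMS it was Beta-s (209), Hba-a1 (203), Hba-a2 (126), Hbb-b1 (53.0), Cygb (26.2), Ngb (4.80) and Alas2 (2.71). The first 2 genes changed places, but no spread over libraries is known by which neighbors could be told apart. Among all genes, Hba-a1 ranked 564 by control level and 304 by CUMS level, Beta-s 590 and 285, Ngb 6457 and 9255, and Cygb 2817 and 3206.

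The genes with the nearest pair of group means were sought for some members, by the distance over log2 control and log2 CUMS RPKM (2 values a gene). The nearest to Ngb were Cyr61 (distance 0.07, 10.6 and 4.56 RPKM), Zic2 (0.17) and Agxt2l1 (0.18). The nearest to Alas2 were Ripply2 (0.03), AW495222 (0.14) and Asb11 (0.16), and those to Cygb were Zfp664, S100a10 and Dgkd, all within 0.03. For Hba-a2 the nearest was Osbpl1a (0.46), which is far in comparison, and its log2 ratio of 0.35 was under that of Hba-a2. With only 2 values, such a match says that the levels are alike and nothing more.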

How the data were processed

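mRNA of the mPFC was sequenced in 2 control and 2 CUMS libraries. Per the methods and the submitters' processing notes, paired poly(A) reads of about 100 bases were trimmed with SolexaQA and aligned to mm10 with TopHat 1.0.12 and Bowtie 0.11.3, allowing up to 3 mismatches, and reads with a single alignment were assigned to genes. Which annotation was used, and whether strand was, is not given in the sources used here. The deposited values are RPKM, which the authors averaged over the libraries of each group, with 0.01 standing in for 0. The methods describe a removal of genes under 0.5 RPKM, but the table holds such genes. The deposited gene length was used as given (2586 lengths were not whole). The authors' ratio, direction and NOISeq probability columns hold their own comparison and were not used.

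Fragments were estimated as RPKM times length divided by the step of low values (67.7 control, 67.2 CUMS), fitted on genes of less than 1000 bases whose product lay below 350. Products lay within 0.15 of a whole step in 86.5% and 86.2% of values, against 35.6% and 36.4% with lengths shuffled. The scripts were tested on simulated data. Log2 ratios used no pseudocount. Genes had to reach 0.5 RPKM in either group, and the floor was 3 fragments over a group. With 1 mean per group no test was run. Named were all members and, of each list, up to 6 genes of highest level and those past the fold, besides defining markers named after their values were seen. Some genes that this rule names are not reported here. Members and lists were chosen with earlier results of these data known. Sequences came from RefSeq (GRCm38.p6), GENCODE M21 and the study's primer table. Analyses used Python 3.11.15, pandas 2.3.3 and SciPy 1.17.1.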

Additional observations from a re-analysis of the deposited data

How the results depend on the processing

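The values rest on 1 mean per group, so a difference between single mice, or 1 library with much blood, could not be detected here. No paired analysis was possible because values of single libraries are not in the table used here, and for the same reason no library could be left out. Under other scalings, pseudocounts and a correction for gene length, the ratios of the 7 genes and their sums kept their direction. They also lay within the counting interval of the reported value. Other depths change only the interval, so the ratios could not move under them. The scalings moved every log2 ratio by 0.02 or -0.01. With a depth 2-fold lower the interval of Alas2 was 0.18 to 1.84 and that of Cygb -0.39 to -0.02, and with a depth 2-fold higher they were 0.57 to 1.38 and -0.30 to -0.12. Taken over genes of at least 5 RPKM, the hemoglobin share was 0.0208% in control and 0.0360% in CUMS. Against 396 genes higher by a fold of 1.5, there were 128 when the fold had to exceed 2, 30 with at least 5 RPKM, 1498 with no minimum and 211 with the counting interval clear of 0. Against 630 lower genes there were 222, 120 and 1889 under the first 3 of these. With a fold above 2, 0 of the 7 genes were higher. With at least 5 RPKM, 0% of platelet genes (1 gene) and 0% of septum and hypothalamus genes (13 genes) were higher. The other 40 values for the lists stayed within their binomial intervals. These intervals treat the genes of a list as independent and are wide (6.8% to 93.2% for platelet genes), so this says little about stability.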
